A study of Mus musculus with 12 samples.

Results

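The genes described here are the nuclear genes of oxidative phosphorylation, taken by symbol and measured in dendritic cells and macrophages that grew from mouse bone marrow under GM-CSF, a cytokine that drives myeloid growth. A gene was a member if its symbol began with Ndufa, Ndufb, Ndufc, Ndufs, Ndufv, Uqcr, Cox4i, Cox5, Cox6, Cox7, Cox8 or Atp5, or was one of Sdha, Sdhb, Sdhc and Sdhd. The rule used no measured value, and it found 89 members among the 19938 genes tested. They comprised 34 genes of complex I, 4 of complex II, 8 of complex III, 19 of complex IV, 17 of complex V and 7 Ndufaf genes, which begin with the same letters but encode assembly factors rather than subunits. Another 6 probe sets carry Cox7c, Ndufb4 or Ndufs5 together with a second symbol and were left out.

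RNA was measured on Affymetrix mouse gene arrays, 1 per sample, in 4 groups of 3. Marrow came from C57B/6 mice, and GM-CSF was given at 20 ng/ml over 6 days of culture. The groups were GM-DC (dendritic cells) that received 10 ng/ml lipopolysaccharide (LPS, a bacterial cell wall component) for 4 hours, unstimulated GM-DC, GM-MF (macrophages) that received the same LPS dose, and unstimulated GM-MF. How the 2 cell types were separated from the cultures is not given in the sources used here, and the labels do not say whether arrays of a group came from separate mice or cultures, so the spread behind each p-value is that between arrays and may be technical.

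Values are log2 expression as deposited, and a difference of 1 is a 2-fold difference. All 8 dendritic cell markers on the list used here were measured, with a mean level per array of 9.78 to 10.04 in GM-DC and 5.25 to 6.34 in GM-MF, and the 8 macrophage markers averaged 5.48 to 5.97 in GM-DC against 9.58 to 9.87 in GM-MF, so the arrays carried the cell types of their labels. Arrays of 1 group correlated at 0.993 to 0.996 over all genes, but an array could still stand apart for single genes. On GM-MF unstimulated replicate 2, COX2, a subunit encoded in mitochondrial DNA, read 11.73, against 12.27 and 12.26 on replicates 1 and 3. The dendritic cell marker Fscn1 read 5.76 there, against 4.37 and 4.59. In such RNA, fewer cells of a type and less RNA per cell cannot be told apart. Of the members, 85 had a mean level above the median gene (4.86). The other members, Cox4i2, Cox7b2, Cox8b and Cox8c, lay near or under the array medians of 4.41 to 4.54 and were not shown to lie above background.

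Oxidative phosphorylation passes electrons taken from NADH at complex I and from succinate at complex II through ubiquinone to complex III, and from there through cytochrome c to oxygen at complex IV. Complexes I, III and IV pump protons across the inner mitochondrial membrane, and complex V, the ATP synthase, uses their return to make ATP. In macrophages and dendritic cells, LPS is known to shift metabolism towards glycolysis, and succinate dehydrogenase (complex II) is known to feed the inflammatory response. Several complex IV subunits exist as tissue isoforms encoded by paired genes, of which Cox7a1, Cox6a2 and Cox8b are best known from heart and skeletal muscle.

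Nuclear genes of these complexes are known for promoters bound by NRF1, by ETS factors such as GABP and by YY1. RefSeq promoter windows of 300 bases (250 before to 50 after the annotated start, assembly GRCm38.p6) were found for 73 of the 89 members, 78 windows in all. The letters GCATGCGC (NRF1 core), on either strand, stood in 15.4% of the members' windows, 3.78% of the windows of genes tested and 2.71% of all windows. The letters CCGGAAG (ETS) stood in 23.1%, 12.1% and 8.86% of the same sets. AAGATGGC (YY1 core) stood in 12.8%, 3.18% and 2.75%, in 7 of 33 complex I windows and 3 of 18 complex V windows and in none of the other members' windows. CCAAT, the letters of the CCAAT box, stood in 42.3%, 37.4% and 37.4%. These are shares of windows that hold the letters and say nothing of binding. The pair Cox7a1 and Cox7a2 is shown because its members encode alternative isoforms of 1 subunit and the first differed most between the cell types among those with a window, and Sdhb and Ndufaf4 because their LPS responses differed between the cell types. Capitals mark the matches, and the CCAAT box reads ATTGG where it lies on the opposite strand.
Cox7a1, chr7:30183921-30184220, plus strand: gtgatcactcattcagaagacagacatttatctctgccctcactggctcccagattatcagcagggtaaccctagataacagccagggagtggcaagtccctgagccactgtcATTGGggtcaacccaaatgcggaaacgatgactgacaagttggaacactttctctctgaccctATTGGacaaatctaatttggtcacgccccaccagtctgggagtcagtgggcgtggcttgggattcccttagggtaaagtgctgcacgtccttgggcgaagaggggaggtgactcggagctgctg
Cox7a2, chr9:79759804-79760103, minus strand: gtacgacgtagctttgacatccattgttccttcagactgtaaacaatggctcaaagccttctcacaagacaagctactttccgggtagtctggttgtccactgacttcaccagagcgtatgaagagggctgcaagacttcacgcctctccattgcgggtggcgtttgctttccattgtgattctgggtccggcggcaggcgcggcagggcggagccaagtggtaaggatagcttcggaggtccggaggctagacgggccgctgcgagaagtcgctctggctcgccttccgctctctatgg
Sdhb, chr4:140961021-140961320, plus strand: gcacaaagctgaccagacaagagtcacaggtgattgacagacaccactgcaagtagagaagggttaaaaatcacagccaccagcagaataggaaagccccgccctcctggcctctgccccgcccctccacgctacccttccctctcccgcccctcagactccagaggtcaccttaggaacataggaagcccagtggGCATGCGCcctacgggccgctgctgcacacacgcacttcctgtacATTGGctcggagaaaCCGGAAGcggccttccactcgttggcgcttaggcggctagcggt
Ndufaf4, chr4:24897833-24898132, plus strand: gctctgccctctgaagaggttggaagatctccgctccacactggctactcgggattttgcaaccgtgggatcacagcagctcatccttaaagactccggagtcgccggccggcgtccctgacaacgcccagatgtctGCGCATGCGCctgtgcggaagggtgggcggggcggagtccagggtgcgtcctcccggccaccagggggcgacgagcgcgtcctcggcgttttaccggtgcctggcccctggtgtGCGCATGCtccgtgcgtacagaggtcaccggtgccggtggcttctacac
The Cox7a1 window holds 2 CCAAT boxes and the Cox7a2 window none of the 4 motifs. The Sdhb window holds 1 NRF1 core, 1 ETS match and 1 CCAAT box close to the start. The Ndufaf4 window holds the NRF1 core 3 times, with overlapping matches on both strands at -113 and -111 and another at 2 from the start.

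The first comparison set GM-DC against GM-MF without LPS. Here 7 of 89 members were higher in GM-DC and 21 were lower, and 61 were not called at an adjusted p under 0.05. Among all genes tested 18% were called higher and 16.2% lower, and 13111 of 19938 were not called. At an unadjusted p under 0.05 there were 41 members, against 8088 of all genes tested. When the test was limited to genes whose mean level exceeded that of the median gene, 33.3% of them were called higher and 29.9% lower, and of the 85 members among them 11 were higher and 28 lower. The median difference of the members was -0.10, against -0.011 over all genes. Of the 89 members 63 had a negative difference and 26 a positive one, while 9582 of the 19938 genes tested had a positive one. By complex, 3 of 34 complex I genes were higher and 9 lower, 3 of 4 complex II genes were lower, 2 of 8 complex III genes were lower, 3 of 19 complex IV genes were lower, and of 17 complex V genes 3 were higher and 4 lower.

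With LPS, GM-DC had 16 members higher and 16 lower than GM-MF, with a median of -0.017 against 0.0018 over all genes. Over all genes 20.9% were called higher and 15.4% lower. With the test limited in that way the shares were 38.5% and 26.6%, with 21 of 85 members higher and 19 lower. Here the balance depended on array scaling, with 12 higher and 18 lower after median centring and 12 higher and 22 lower after cyclic loess. The median was -0.071 after median centring and -0.076 after cyclic loess. It was -0.057 without GM-DC LPS replicate 2 and -0.036 without GM-MF LPS replicate 1, and its sign turned without GM-DC LPS replicate 3 (0.010) or GM-MF LPS replicate 2 (0.016). Leaving out GM-MF LPS replicate 1 left 10 called higher. All 7 members called higher without LPS were also called higher with it, which is 43.8% of the 16, and 13 of the 21 called lower without LPS were called lower with it, 81.2% of the 16. No member was called in opposite directions. The matching overlap over all genes was not counted, so these shares cannot be set against it. These comparisons use different arrays.

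**Figure D1:**
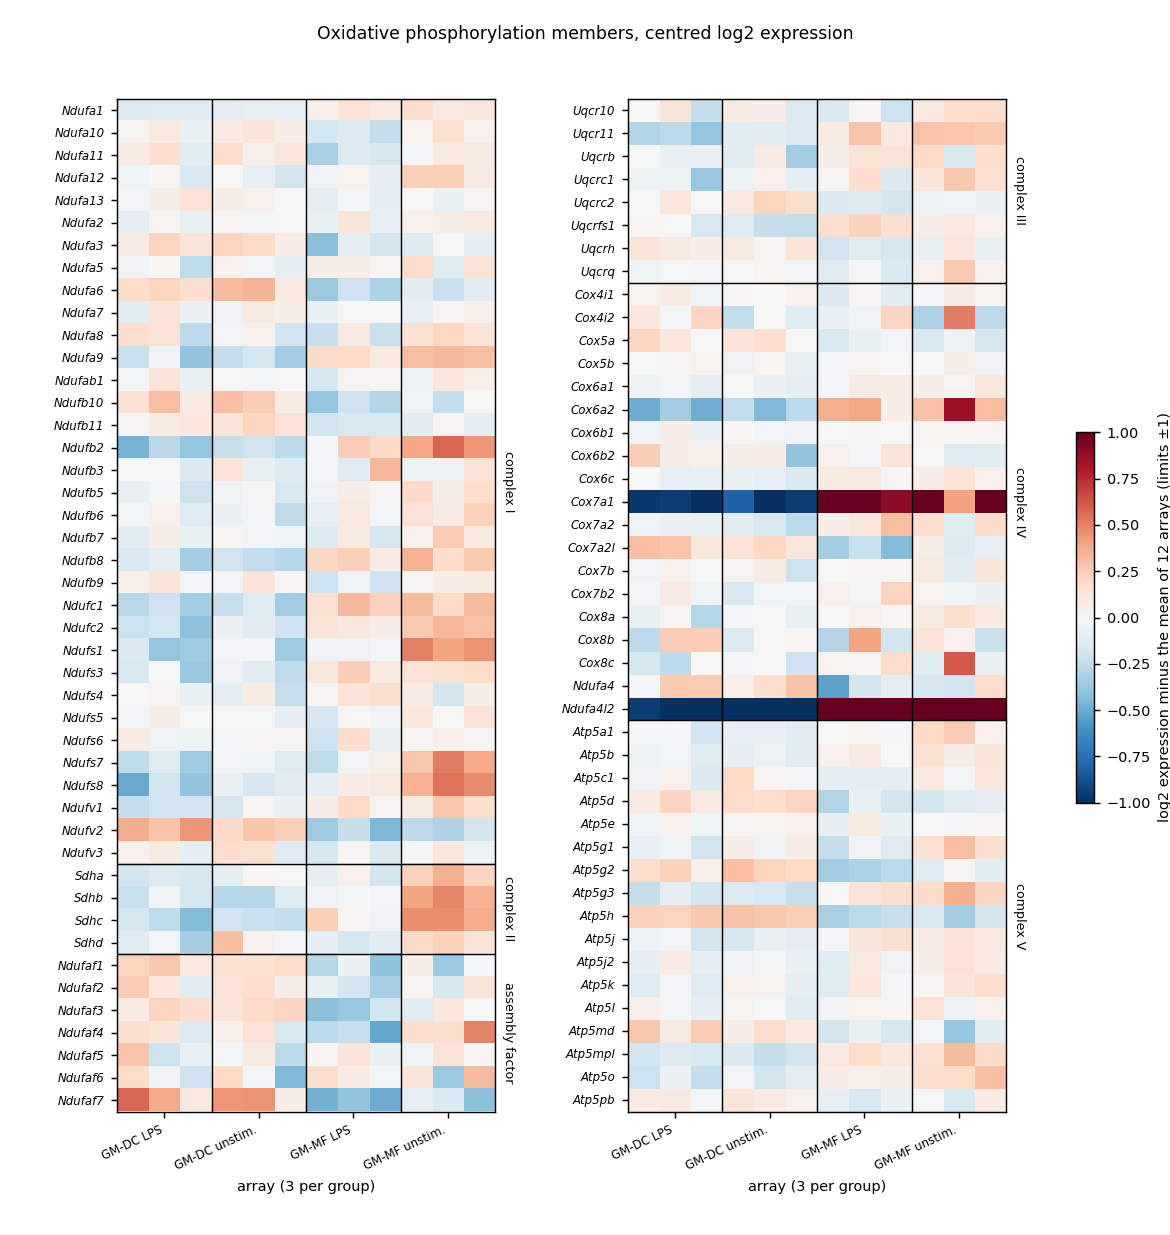
Log2 expression of each of the 89 members (rows, by complex) on each of 12 arrays (columns, 3 per group), minus the gene's mean over the 12 arrays, with colours limited to ±1. Most rows are pale, while Ndufa4l2 and Cox7a1 are far lower on all 6 GM-DC arrays, and the Sdha, Sdhb and Sdhc rows are highest on the unstimulated GM-MF arrays.

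**Figure D2:**
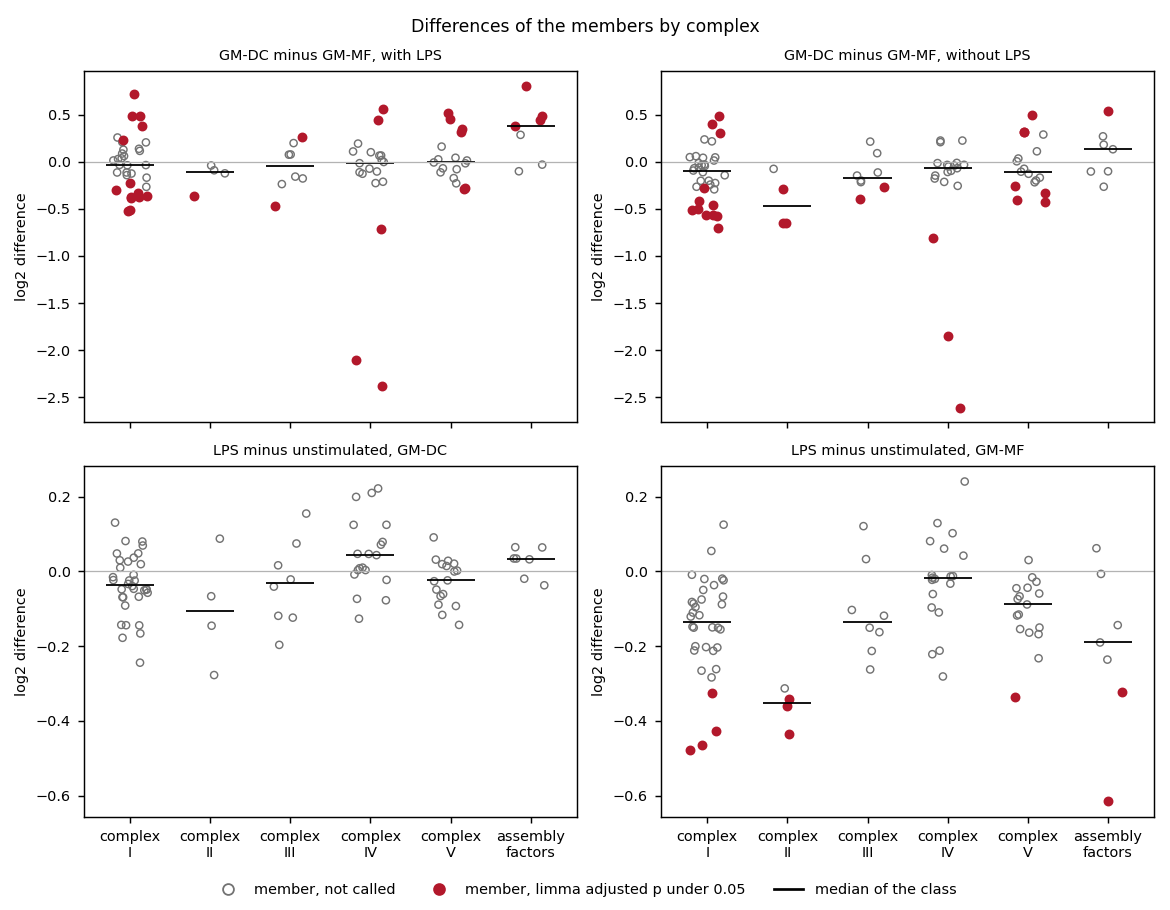
Log2 difference of each member (points) by complex in GM-DC minus GM-MF with and without LPS (upper panels) and in LPS minus unstimulated within each cell type (lower panels, with a narrower axis). Filled points passed limma's adjusted p of 0.05 and bars are class medians; no point is filled for LPS in GM-DC, where differences ran between -0.28 and 0.22.

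The largest differences between the cell types belonged to isoform genes of complex IV. Ndufa4l2, a paralogue of the complex IV subunit Ndufa4 known as a target of hypoxia-inducible factor, read 4.36, 3.97 and 4.14 in LPS-treated GM-DC and 3.70, 4.24 and 3.93 in unstimulated GM-DC. In GM-MF it read 6.41, 6.47 and 6.72 with LPS and 6.86, 6.29 and 6.54 without. Every GM-DC array lay below every GM-MF array and below the array medians. The log2 difference was -2.61 ± 0.17 without LPS (limma SE, 6.1-fold lower in GM-DC, adjusted p = 5.37e-09) and -2.38 ± 0.17 with LPS (5.19-fold lower, adjusted p = 1.53e-08). Since the GM-DC values were not shown to lie above background, these folds are ratios of signals.

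Cox7a1, the muscle isoform of subunit VIIa, read 6.12, 6.14 and 5.98 in LPS-treated GM-DC and 6.27, 5.91 and 6.13 in unstimulated GM-DC. Its GM-MF values were 8.14, 8.45 and 7.97 with LPS and 8.26, 7.49 and 8.10 without. The cell types did not overlap, and Cox7a1 was 3.59-fold lower in GM-DC without LPS (log2 difference -1.85 ± 0.18, adjusted p = 5.87e-07) and 4.31-fold lower with LPS (-2.11 ± 0.18, adjusted p = 1.32e-07). Cox7a2, the isoform found in most tissues, differed by -0.26 ± 0.11 without LPS (adjusted p = 0.084) and -0.21 ± 0.11 with LPS (adjusted p = 0.152), neither of which was called. Ndufa4l2 and Cox7a1 were the members called at 2-fold or more, in both comparisons. Of the 19938 genes tested, 1134 were called higher and 1399 lower at that size without LPS, and 1277 and 1295 with LPS.

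Cox6a2, the muscle isoform of subunit VIa, showed the same order with smaller gaps. It read 5.52, 5.67 and 5.52 in LPS-treated GM-DC and 5.76, 5.57 and 5.75 in unstimulated GM-DC. The GM-MF arrays read 6.37, 6.40 and 6.08 with LPS and 6.31, 6.88 and 6.32 without. The difference was -0.81 ± 0.15 without LPS (adjusted p = 0.000369) and -0.71 ± 0.15 with LPS (adjusted p = 0.00102), again without overlap. Its common counterpart Cox6a1 differed by -0.11 ± 0.09 and -0.10 ± 0.09 and was not called. No LPS response of Ndufa4l2, Cox7a1 or Cox6a2 was called in either cell type.

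Ndufa4 itself, a subunit of complex IV, went the other way from its paralogue. It read 9.77, 10.05 and 10.04 in LPS-treated GM-DC, against 9.25, 9.60 and 9.69 in LPS-treated GM-MF, a difference of 0.44 ± 0.14 (adjusted p = 0.0204). Without GM-DC LPS replicate 2, GM-DC LPS replicate 3 or GM-MF LPS replicate 1 it was no longer called (0.31 to 0.40, adjusted p = 0.0683 to 0.112), nor after cyclic loess (0.36, adjusted p = 0.0709). Without LPS the difference was 0.22 ± 0.14 (adjusted p = 0.26). A second paralogue of Ndufa4 outside the symbol rule, AA467197, known as MOCCI and as a replacement for Ndufa4 in inflamed cells, averaged 11.49 in LPS-treated GM-DC and 12.15 in LPS-treated GM-MF. It was lower in GM-DC by -0.66 ± 0.10 both with LPS (adjusted p = 5.49e-05) and without (adjusted p = 6e-05), and its response to LPS, 0.20 ± 0.10 in either cell type, was not called.

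**Figure D3:**
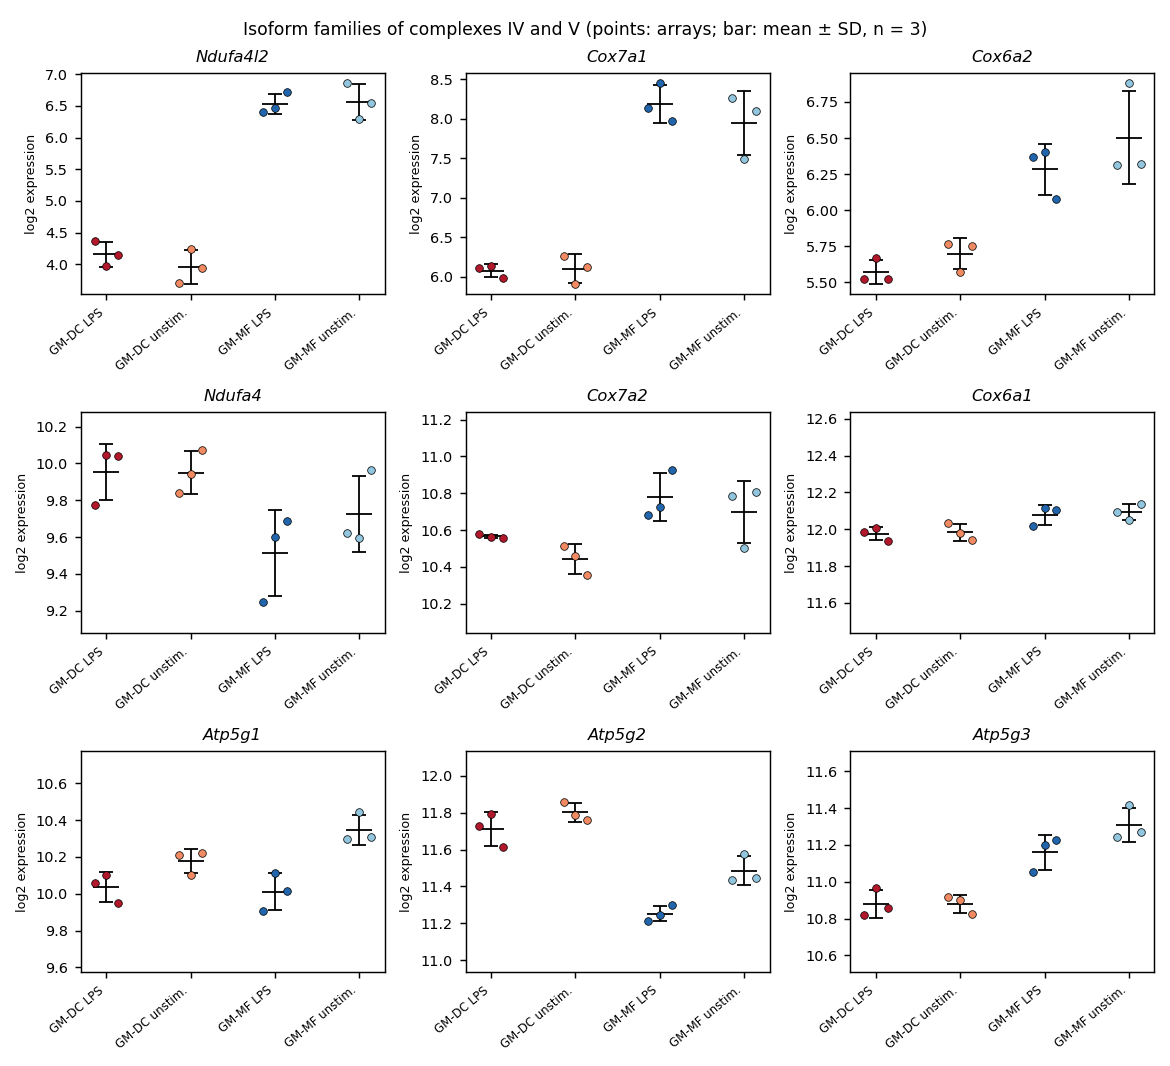
Log2 expression of isoform genes of complexes IV and V on each array (points), with mean ± SD of 3 arrays per group, each panel with its own scale of levels. Ndufa4l2, Cox7a1 and Cox6a2 lie lower on all 6 GM-DC arrays than on any GM-MF array, while of their counterparts Cox7a2 and Cox6a1 were not called and Ndufa4 was called higher in GM-DC with LPS. Atp5g2 and Atp5g3 go in opposite directions.

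Supercomplexes of complexes III and IV, for which Cox7a2l is known as a factor, were not measured here, nor was its protein. Cox7a2l RNA read 11.86, 11.84 and 11.67 in LPS-treated GM-DC and 11.23, 11.34 and 11.13 in LPS-treated GM-MF. It was higher in GM-DC by 0.56 ± 0.10 (adjusted p = 0.0003), whereas without LPS the difference of 0.21 ± 0.10 was not called (adjusted p = 0.133). The remaining isoform genes of complex IV showed no called difference in any comparison. They were Cox4i1, the common isoform of subunit IV (-0.01 ± 0.09 without LPS, 0.10 ± 0.09 with LPS), its hypoxia and lung isoform Cox4i2, Cox6b1 and its testis isoform Cox6b2, and Cox8a, Cox8b and Cox8c.

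Complex II differed in 3 of its 4 genes without LPS, and all 4 differences were negative. Sdhb, the iron-sulphur subunit, read 8.46, 8.63 and 8.50 in LPS-treated GM-DC and 8.39, 8.39 and 8.55 in unstimulated GM-DC. In GM-MF it read 8.64, 8.67 and 8.65 with LPS and 9.07, 9.16 and 9.03 without. The unstimulated GM-MF arrays were the highest and overlapped no other group. Sdhb was lower in GM-DC without LPS by -0.65 ± 0.09 (1.56-fold, adjusted p = 4.39e-05), while with LPS the difference was -0.12 ± 0.09 (adjusted p = 0.365).

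Sdhc, a membrane anchor that holds the ubiquinone site together with Sdhd, read 9.54, 9.46 and 9.28 in LPS-treated GM-DC and 9.52, 9.49 and 9.47 in unstimulated GM-DC. The GM-MF values were 9.95, 9.73 and 9.68 with LPS and 10.18, 10.18 and 10.08 without. No GM-DC array reached a GM-MF array. The difference was -0.65 ± 0.10 without LPS (adjusted p = 0.000105) and -0.36 ± 0.10 with LPS (adjusted p = 0.0118), and the second was no longer called without GM-DC LPS replicate 3 or GM-MF LPS replicate 1 (-0.29 to -0.28, adjusted p = 0.057 to 0.0645).

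Sdha, the flavoprotein that oxidises succinate, read 9.10, 9.15 and 9.12 in LPS-treated GM-DC and 9.20, 9.31 and 9.30 in unstimulated GM-DC, and 9.21, 9.34 and 9.11 in LPS-treated GM-MF and 9.52, 9.65 and 9.51 in unstimulated GM-MF. It was lower in GM-DC without LPS by -0.29 ± 0.09 (adjusted p = 0.0266), a call lost without GM-DC unstimulated replicate 1 or GM-MF unstimulated replicate 2 (-0.25 to -0.24, adjusted p = 0.0883 to 0.103). With LPS the difference was -0.09 ± 0.09. Sdhd, the other anchor, differed by -0.08 ± 0.11 without LPS and -0.04 ± 0.11 with LPS and was not called.

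Of the 4 measured assembly factors of complex II (Sdhaf1 to Sdhaf4), which are no members, Sdhaf1 and Sdhaf2 were higher in GM-DC with and without LPS. Sdhaf1, which serves the iron-sulphur clusters of Sdhb, read 9.90, 9.76 and 9.74 in LPS-treated GM-DC and 10.23, 10.27 and 10.22 in unstimulated GM-DC. In GM-MF it read 7.05, 7.46 and 6.93 with LPS and 8.34, 7.76 and 8.23 without. It was 6.29-fold higher in GM-DC with LPS (2.65 ± 0.15, adjusted p = 2.07e-09) and 4.38-fold higher without (2.13 ± 0.15, adjusted p = 2.43e-08). Sdhaf2, which inserts the flavin into Sdha and was singled out after its values were seen, was higher in GM-DC by 1.16 ± 0.10 with LPS (adjusted p = 1.46e-07) and 1.13 ± 0.10 without (adjusted p = 2.05e-07). Sdhaf3 was higher with LPS by 0.51 ± 0.15 (adjusted p = 0.0155) and was not called without (0.36 ± 0.15, adjusted p = 0.0857). Sdhaf4 was called in neither comparison, with differences of -0.09 with LPS (adjusted p = 0.708) and -0.16 without (adjusted p = 0.491).

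Complex I split in both directions between the cell types. Ndufb2, an accessory subunit of the membrane arm, read 7.30, 7.48 and 7.37 in LPS-treated GM-DC and 7.53, 7.56 and 7.49 in unstimulated GM-DC. In GM-MF it read 7.74, 8.01 and 7.95 with LPS and 8.15, 8.34 and 8.19 without, so that the cell types did not overlap. It was lower in GM-DC by -0.70 ± 0.10 without LPS (1.62-fold, adjusted p = 5.19e-05) and by -0.52 ± 0.10 with LPS (adjusted p = 0.00077). The core iron-sulphur subunits Ndufs1 (-0.58 ± 0.11, adjusted p = 0.000578) and Ndufs8 (-0.57 ± 0.11, adjusted p = 0.000509) were lower without LPS. With LPS, Ndufc1, an accessory subunit, was lower by -0.51 ± 0.10 (adjusted p = 0.000518), as it was without LPS (-0.51 ± 0.10, adjusted p = 0.000571). Ndufs8 was also lower with LPS (-0.39 ± 0.11, adjusted p = 0.00914), a call lost without GM-DC LPS replicate 1 (-0.31, adjusted p = 0.0521), while Ndufs1 was not called (-0.27 ± 0.11, adjusted p = 0.0758). Ndufs7, which lies next to the ubiquinone site, was lower without LPS (-0.46 ± 0.11, adjusted p = 0.00383) and not called with it (-0.17 ± 0.11, adjusted p = 0.28). Ndufc2, another accessory subunit and one of the members with the highest levels in complex I, was lower by -0.36 ± 0.09 with LPS (adjusted p = 0.00594) and -0.42 ± 0.09 without (adjusted p = 0.00217).

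Ndufv2, an iron-sulphur subunit of the NADH-oxidising module, had the largest positive differences of the complex I genes. It read 9.32, 9.24 and 9.40 in LPS-treated GM-DC and 9.14, 9.23 and 9.19 in unstimulated GM-DC, and 8.59, 8.71 and 8.50 in LPS-treated GM-MF and 8.68, 8.65 and 8.77 in unstimulated GM-MF. Every GM-DC array lay above every GM-MF array, and the difference was 0.71 ± 0.09 with LPS (1.64-fold, adjusted p = 1.65e-05) and 0.49 ± 0.09 without (adjusted p = 0.000639). The accessory subunit Ndufa6 was higher by 0.49 ± 0.10 with LPS (adjusted p = 0.000818) and 0.40 ± 0.10 without (adjusted p = 0.00424). Ndufb10, another accessory subunit, was higher by 0.48 ± 0.11 with LPS (adjusted p = 0.00211). Its difference without LPS, 0.30 ± 0.11 (adjusted p = 0.041), was no longer called when any of 6 arrays was left out (0.23 to 0.33, adjusted p = 0.0515 to 0.158), namely GM-DC LPS replicate 1, GM-DC unstimulated replicates 1 and 2, GM-MF LPS replicate 3 or GM-MF unstimulated replicates 1 and 2, nor after median centring (adjusted p = 0.0586). The call was also lost when only the unstimulated arrays were fitted (adjusted p = 0.0676).

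The 7 Ndufaf genes, which encode assembly factors of complex I, had 4 higher in GM-DC with LPS and 1 without, and none lower, where 20.9% of all genes were higher with LPS and 18% without. Ndufaf7, a methyltransferase that acts on a complex I core subunit, read 6.34, 6.13 and 5.85 in LPS-treated GM-DC and 6.20, 6.20 and 5.82 in unstimulated GM-DC, and 5.28, 5.36 and 5.26 in LPS-treated GM-MF and 5.67, 5.60 and 5.33 in unstimulated GM-MF. No GM-DC array was as low as a GM-MF array. The difference was 0.81 ± 0.14 with LPS (1.75-fold, adjusted p = 0.000264) and 0.54 ± 0.14 without (adjusted p = 0.00704). Ndufaf3 was higher by 0.48 ± 0.10 with LPS (adjusted p = 0.00117). Ndufaf1 was higher by 0.45 ± 0.12 with LPS (adjusted p = 0.01), a call lost without GM-MF LPS replicate 3 (0.37, adjusted p = 0.0537) and after cyclic loess (0.28, adjusted p = 0.0604).

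In complex III, Uqcr11, a small subunit, read 9.85, 9.88 and 9.75 in LPS-treated GM-DC and 10.04, 10.03 and 10.00 in unstimulated GM-DC. The GM-MF arrays read 10.22, 10.43 and 10.24 with LPS and 10.43, 10.42 and 10.41 without. The cell types did not overlap, and Uqcr11 was lower in GM-DC by -0.47 ± 0.09 with LPS (adjusted p = 0.00064) and -0.39 ± 0.09 without (adjusted p = 0.00287). Uqcrfs1, the Rieske iron-sulphur protein, was lower without LPS by -0.27 ± 0.09 (adjusted p = 0.0294). That call was lost when GM-DC unstimulated replicate 2 or 3 or any unstimulated GM-MF array was left out (-0.28 to -0.25, adjusted p = 0.0586 to 0.0918). It was also lost when only the unstimulated arrays were fitted (-0.27, adjusted p = 0.0508). Uqcrh, the hinge protein, was higher in GM-DC with LPS by 0.26 ± 0.09 (adjusted p = 0.0369), a call lost without GM-DC unstimulated replicate 1 or any 1 of the 6 LPS arrays (0.24 to 0.28, adjusted p = 0.0523 to 0.106) and after median centring (0.20, adjusted p = 0.101). Fitting only the LPS arrays also ended it (0.26, adjusted p = 0.0711).

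Complex V held the clearest pair of opposite isoform genes. Atp5g1, Atp5g2 and Atp5g3 encode the same mature c subunit of the proton-driven ring with different import sequences. Atp5g2 read 11.73, 11.79 and 11.61 in LPS-treated GM-DC and 11.86, 11.79 and 11.76 in unstimulated GM-DC, and 11.21, 11.25 and 11.30 in LPS-treated GM-MF and 11.43, 11.57 and 11.45 in unstimulated GM-MF. It was higher in GM-DC by 0.46 ± 0.09 with LPS (adjusted p = 0.00085) and 0.32 ± 0.09 without (adjusted p = 0.0127), the second being lost without GM-DC unstimulated replicate 1 (0.29, adjusted p = 0.0562).

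Atp5g3 read 10.82, 10.97 and 10.86 in LPS-treated GM-DC and 10.92, 10.90 and 10.83 in unstimulated GM-DC, and 11.05, 11.20 and 11.23 in LPS-treated GM-MF and 11.24, 11.42 and 11.27 in unstimulated GM-MF. It was lower in GM-DC by -0.43 ± 0.10 without LPS (adjusted p = 0.00211). With LPS it was lower by -0.28 ± 0.10 (adjusted p = 0.0325), a call lost without GM-DC LPS replicate 1 or 3 or GM-MF LPS replicate 2 or 3 (-0.27 to -0.24, adjusted p = 0.0758 to 0.11). That call was also lost when only the LPS arrays were fitted (-0.28, adjusted p = 0.07). Levels of the 3 genes come from different probe sets and were not set against each other.

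Atp5h, a subunit of the peripheral stalk, read 11.13, 11.12 and 11.17 in LPS-treated GM-DC and 11.19, 11.17 and 11.14 in unstimulated GM-DC, and 10.57, 10.63 and 10.67 in LPS-treated GM-MF and 10.74, 10.55 and 10.72 in unstimulated GM-MF. Its GM-DC values did not overlap the GM-MF values, with differences of 0.51 ± 0.09 with LPS (1.43-fold, adjusted p = 0.000248) and 0.50 ± 0.09 without (adjusted p = 0.000363). Atp5d, the delta subunit of the central stalk, was higher by 0.32 ± 0.09 with LPS (adjusted p = 0.0137) and without (adjusted p = 0.0139). Without LPS the Atp5d call was lost without GM-MF unstimulated replicate 1 (0.29, adjusted p = 0.0513), and with LPS without GM-DC LPS replicate 2 or GM-MF LPS replicate 1 (0.26 to 0.27, adjusted p = 0.058 to 0.0645). Atp5mpl, a small membrane subunit, was lower by -0.41 ± 0.09 without LPS (adjusted p = 0.00176), and by -0.29 ± 0.09 with LPS (adjusted p = 0.0182), the second being lost without GM-DC LPS replicate 1 or GM-MF LPS replicate 2 (-0.27 to -0.26, adjusted p = 0.0584 to 0.0637). Atp5md, another small membrane subunit, was higher with LPS by 0.35 ± 0.11 (adjusted p = 0.0185), a call lost without GM-DC LPS replicate 1 or 3 or GM-MF LPS replicate 1 or 3 (0.32 to 0.33, adjusted p = 0.0564 to 0.0675) and after median centring. The stalk subunit Atp5o was lower without LPS by -0.33 ± 0.09 (adjusted p = 0.0115), a call lost without GM-DC unstimulated replicate 2 or GM-MF unstimulated replicate 3 (-0.29, adjusted p = 0.0556 to 0.0574).

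Other members with the highest mean levels of their complex were called in neither comparison. These were Ndufs5 of complex I (0.09 ± 0.09 with LPS, -0.11 ± 0.09 without), Uqcr10 of complex III (0.07 ± 0.11 with LPS, -0.15 ± 0.11 without), Cox6b1 of complex IV (-0.02 ± 0.08 with LPS, -0.03 ± 0.08 without) and Atp5e of complex V (0.01 ± 0.09 with LPS, 0.03 ± 0.09 without).

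The next comparisons set LPS-treated cells against unstimulated cells of the same type. In GM-DC 0 of 89 members were called in either direction, while 5.23% of all genes were called higher and 4.49% lower. At an unadjusted p under 0.05 there were 3 members, Sdhd, Ndufs8 and Uqcr11, against 3884 of the 19938 genes tested. They are named because the count is small, with differences of -0.28 ± 0.11, -0.24 ± 0.11 and -0.20 ± 0.09 and adjusted p of 0.161, 0.214 and 0.251. The differences of all members lay between -0.28 and 0.22, and their median was -0.016 against -0.0079 over all genes. That median was -0.028 after median centring and -0.046 after cyclic loess, -0.044 without GM-DC LPS replicate 2 and -0.040 without GM-DC unstimulated replicate 3, and it turned to 0.023 without GM-DC LPS replicate 3 and 0.0021 without GM-DC unstimulated replicate 1. Under each alternative tried the count in GM-DC was also 0.

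In GM-MF, LPS lowered 10 of 89 members and raised none, against 10.8% of all genes called lower and 6.54% called higher. At an unadjusted p under 0.05 there were 20 members, against 5362 of the 19938 genes tested. In the test of the better expressed genes 23.5% were called lower and 12.8% higher, with 15 of 85 members lower and 0 higher. Over all genes 37.7% of calls were higher, which became 52.4% after cyclic loess. The members' median was -0.11, against -0.018 over all genes. Of the 89 members 77 had a negative difference and 12 a positive one, while 9240 of the 19938 genes tested had a positive one. Median centring brought the members' median to -0.071, with 62 negative, and cyclic loess to -0.074, with 69 negative. The 10 comprised 3 of 4 complex II genes, 4 of 34 complex I genes, 2 of 7 assembly factors and 1 of 17 complex V genes, and none of complex III or IV. Leaving out GM-MF LPS replicate 1 or GM-MF unstimulated replicate 2 left 5 called, and leaving out GM-MF LPS replicate 3 left 6.

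**Figure D4:**
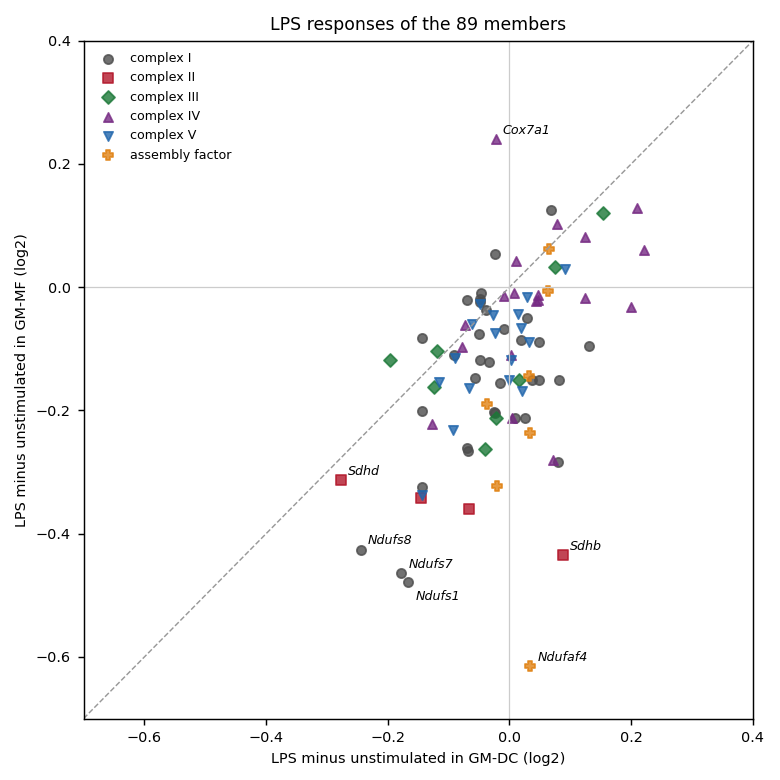
LPS response (log2 LPS minus unstimulated) of each of the 89 members in GM-DC (horizontal axis) and GM-MF (vertical axis), with symbols by complex; the dashed line marks equal responses. Most points lie below the horizontal zero line, and Sdhb and Ndufaf4 lie farthest below the dashed line, with GM-DC responses of 0.09 and 0.03, and GM-MF responses of -0.43 and -0.61.

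Complex II had 3 of its 4 genes called lower, of which only Sdhb stayed called under every alternative. Sdhb fell in GM-MF by 0.43 on the log2 scale (SE 0.09, adjusted p = 0.00378), with the values given above, and its response in GM-DC was 0.09 ± 0.09. The difference between these responses was 0.52 ± 0.13 (adjusted p = 0.0233). It was no longer called without GM-DC LPS replicate 2, GM-DC unstimulated replicate 1 or 2 or GM-MF LPS replicate 3 (0.47 to 0.52, adjusted p = 0.051 to 0.0661), nor after cyclic loess (0.43, adjusted p = 0.0568). Sdhb also had the lower level in GM-DC without LPS, and both results rest on the same 3 unstimulated GM-MF arrays.

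Sdha fell in GM-MF by 0.34 (SE 0.09, adjusted p = 0.0194) and Sdhc by 0.36 (SE 0.10, adjusted p = 0.0242). The Sdha call was lost without GM-MF LPS replicate 1 or 3 or GM-MF unstimulated replicate 2 (-0.34 to -0.29, adjusted p = 0.0541 to 0.0926) and after cyclic loess (-0.28, adjusted p = 0.0558). It was also lost when only the GM-MF arrays were fitted (-0.34, adjusted p = 0.0563). The Sdhc call was lost without GM-MF LPS replicate 2 or 3 or GM-MF unstimulated replicate 1 or 2 (-0.35 to -0.31, adjusted p = 0.0599 to 0.108) and after median centring (-0.32, adjusted p = 0.0773). With only the GM-MF arrays fitted it was lost as well (-0.36, adjusted p = 0.051). Sdhd read 8.81, 8.91 and 8.60 in LPS-treated GM-DC and 9.24, 8.98 and 8.92 in unstimulated GM-DC, and 8.85, 8.76 and 8.82 in LPS-treated GM-MF and 9.13, 9.17 and 9.07 in unstimulated GM-MF. Its groups did not overlap in either cell type, yet its response was called in neither, with -0.28 ± 0.11 (adjusted p = 0.161) in GM-DC, against -0.31 ± 0.11 (adjusted p = 0.0677) in GM-MF. Sdhaf1 fell with LPS in GM-MF by 0.96 (SE 0.15, adjusted p = 0.000407) and differed by -0.44 ± 0.15 in GM-DC (adjusted p = 0.0999), and the difference between these responses was not called (0.52 ± 0.22, adjusted p = 0.199).

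**Figure D5:**
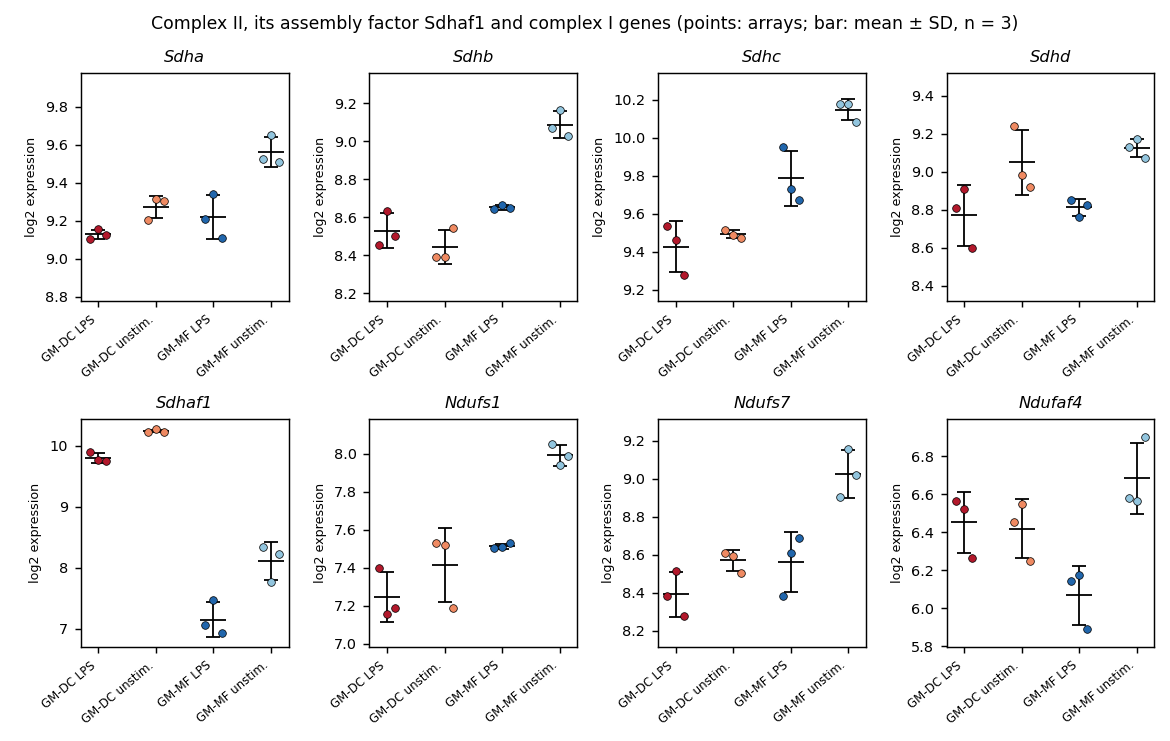
Log2 expression of the 4 complex II genes, the assembly factor gene Sdhaf1, the complex I genes Ndufs1 and Ndufs7 and the assembly factor gene Ndufaf4 on each array (points), with mean ± SD of 3 arrays per group and a scale of its own in each panel. The unstimulated GM-MF arrays are the highest for Sdha, Sdhb, Sdhc, Ndufs1 and Ndufs7, and Sdhaf1 is higher on all 6 GM-DC arrays.

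In complex I the genes that fell in GM-MF were Ndufs1, Ndufs7, Ndufs8 and Ndufb2, the first 3 of which encode iron-sulphur subunits of the arm that carries electrons to ubiquinone. Ndufs1 read 7.40, 7.16 and 7.19 in LPS-treated GM-DC and 7.53, 7.52 and 7.19 in unstimulated GM-DC, and 7.50, 7.51 and 7.53 in LPS-treated GM-MF and 8.05, 7.94 and 7.99 in unstimulated GM-MF. It fell in GM-MF by 0.48 (SE 0.11, adjusted p = 0.00629), with no overlap, and its difference in GM-DC was -0.17 ± 0.11 (adjusted p = 0.494), where the arrays overlapped. Ndufs7 read 8.38, 8.51 and 8.28 in LPS-treated GM-DC and 8.61, 8.59 and 8.50 in unstimulated GM-DC, and 8.38, 8.61 and 8.69 in LPS-treated GM-MF and 8.90, 9.15 and 9.02 in unstimulated GM-MF. It fell in GM-MF by 0.46 (SE 0.11, adjusted p = 0.00758) and differed by -0.18 ± 0.11 in GM-DC (adjusted p = 0.448).

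Neither gene's response was shown to differ between the cell types (0.31 ± 0.16 for Ndufs1, adjusted p = 0.313, and 0.29 ± 0.16 for Ndufs7, adjusted p = 0.369). Ndufs8 fell in GM-MF by 0.43 (SE 0.11, adjusted p = 0.0108), a call lost without GM-MF LPS replicate 1 (-0.37, adjusted p = 0.0531). Ndufb2 fell by 0.33 (SE 0.10, adjusted p = 0.0402), a call lost when any of 7 arrays was left out (-0.36 to -0.24, adjusted p = 0.0542 to 0.169), namely GM-DC unstimulated replicates 1 and 2, GM-MF LPS replicates 1 and 3 and each unstimulated GM-MF array, and after median centring (-0.29, adjusted p = 0.0562) and cyclic loess (-0.22, adjusted p = 0.211). Fitting only the GM-MF arrays also ended the Ndufb2 call (-0.325, adjusted p = 0.0887).

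Ndufaf4, an early assembly factor of complex I, had the largest LPS response of the members. It read 6.57, 6.52 and 6.27 in LPS-treated GM-DC and 6.46, 6.55 and 6.25 in unstimulated GM-DC. In GM-MF it read 6.14, 6.17 and 5.89 with LPS and 6.58, 6.57 and 6.90 without, and these groups did not overlap. It fell in GM-MF by 0.61 (SE 0.13, 1.53-fold, adjusted p = 0.00348) and differed by 0.03 ± 0.13 in GM-DC. The difference between the responses was 0.65 ± 0.18 (adjusted p = 0.0441), but it was not called when any of 9 arrays was left out (0.54 to 0.70, adjusted p = 0.0513 to 0.12), the exceptions being GM-DC LPS replicate 3, GM-DC unstimulated replicate 2 and GM-MF unstimulated replicate 2, nor after median centring (0.60, adjusted p = 0.0966) or cyclic loess (0.56, adjusted p = 0.0683).

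With LPS, Ndufaf4 was higher in GM-DC by 0.38 ± 0.13 (adjusted p = 0.0305), a call lost without GM-DC LPS replicate 1 or 2 or GM-MF LPS replicate 3 (0.30 to 0.35, adjusted p = 0.0944 to 0.138) and after either scaling. Ndufaf3 fell in GM-MF by 0.32 (SE 0.10, adjusted p = 0.0381), a call lost when GM-DC unstimulated replicate 1 or 2, GM-MF LPS replicate 1 or 2 or GM-MF unstimulated replicate 2 or 3 was left out (-0.32 to -0.27, adjusted p = 0.0523 to 0.134), and after median centring (-0.28, adjusted p = 0.0635) and cyclic loess (-0.22, adjusted p = 0.218). It was also lost when only the GM-MF arrays were fitted (-0.32, adjusted p = 0.089). Atp5g1, the c-subunit gene not called between the cell types, fell in GM-MF by 0.34 (SE 0.10, adjusted p = 0.0237), a call lost without GM-MF LPS replicate 1 or 3 or GM-MF unstimulated replicate 2 or 3 (-0.36 to -0.29, adjusted p = 0.0502 to 0.0957). With only the GM-MF arrays fitted it was lost as well (-0.34, adjusted p = 0.0564).

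Of the 10 members called in GM-MF, Sdhb, Ndufs1, Ndufs7 and Ndufaf4 were called under every alternative tried. Over all members, 73 of 89 responses were higher in GM-DC than in GM-MF, as were 10763 of 19938 over all genes. The median difference was 0.087 against 0.021 over all genes. Of the members 2 were called higher and 0 lower, where 4.53% of all genes were called higher and 3.06% lower. At an unadjusted p under 0.05 there were 3 members, against 3676 of the 19938 genes tested. Median centring brought that median to 0.036 and cyclic loess to 0.024. In all, 48 of 89 members were called in none of the 5 comparisons, and the matching share of all genes was not counted. Of the monocyte markers 3 of 5 were measured. Their mean level per array was 6.34 to 6.42 in LPS-treated GM-MF and 7.14 to 7.31 in unstimulated GM-MF. Most of that gap came from Ccr2, whose GM-MF mean was 5.932 with LPS and 7.9955 without. Cx3cr1 differed less (5.33 with LPS, 5.8372 without), and F13a1 was not lower with LPS (7.8529 with LPS, 7.7997 without). The 8 neutrophil markers averaged 6.28 to 6.34 in LPS-treated GM-MF and 5.98 to 6.17 in unstimulated GM-MF. The 8 dendritic cell markers averaged 5.90 to 6.34 in LPS-treated GM-MF and 5.25 to 5.67 in unstimulated GM-MF, without overlap. This average joins opposite movements. Ccr7 (9.45 with LPS, 6.99 without), Fscn1, Zbtb46, Stat4 and Cd83 had higher means with LPS, and Batf3 (6.27 with LPS, 6.95 without), Flt3 and Irf4 had lower ones. In GM-DC the 8 macrophage markers averaged 5.70 to 5.97 with LPS and 5.48 to 5.56 without, again without overlap. There Adgre1 (7.02 with LPS, 5.78 without), Mrc1, Mertk and Fcgr1 had higher means with LPS. Csf1r (4.98 with LPS, 6.60 without), Cd68, C5ar1 and Itgam had lower ones. No value in the table was 0, and the part of these markers in the LPS responses of the members was not tested.

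Genes around the complexes were grouped in lists outside the symbol rule. Among 36 measured assembly factors of all complexes, 16 were higher in GM-DC and 7 lower with LPS, and 9 were higher and 6 lower without. The shares over all genes were 20.9% and 15.4% with LPS and 18% and 16.2% without. Tmem70, which is needed to assemble the c ring of complex V, read 8.35, 8.18 and 8.40 in LPS-treated GM-DC and 8.38, 8.24 and 8.35 in unstimulated GM-DC, and 6.98, 6.99 and 6.86 in LPS-treated GM-MF and 6.82, 6.68 and 6.83 in unstimulated GM-MF. It was higher on every GM-DC array, by 1.37 ± 0.10 with LPS (adjusted p = 2.13e-08) and 1.55 ± 0.10 without (2.92-fold, adjusted p = 5.28e-09). Cox18, which inserts a complex IV subunit into the membrane, was lower in GM-DC by -1.19 ± 0.13 with LPS (adjusted p = 3.47e-06) and -0.72 ± 0.13 without (adjusted p = 0.000511). Coa7, another complex IV factor, was lower by -0.88 ± 0.19 with LPS (adjusted p = 0.00189) and -0.89 ± 0.19 without (adjusted p = 0.00179).

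Sco1, which delivers copper to complex IV, was the assembly factor gene that rose most with LPS. It read 7.60, 7.85 and 7.12 in LPS-treated GM-DC, against 6.37, 6.37 and 6.22 in unstimulated GM-DC, a rise of 1.20 ± 0.17 (2.3-fold, adjusted p = 0.000234). In GM-MF it read 8.01, 8.16 and 7.90 with LPS, against 6.92, 7.21 and 6.71 without, a rise of 1.07 ± 0.17 (2.1-fold, adjusted p = 0.000324). No LPS-treated array overlapped an unstimulated array of its cell type. In GM-MF 2 of the 36 assembly factors rose and 7 fell with LPS, and in GM-DC 1 rose and 3 fell. Over all genes 6.54% rose and 10.8% fell in GM-MF, and 5.23% rose and 4.49% fell in GM-DC. Tmem126b, a complex I factor, fell in GM-MF by 0.93 (SE 0.18, adjusted p = 0.00178). Ecsit, a complex I factor that also serves Toll-like receptor signalling, fell by 0.68 (SE 0.12, adjusted p = 0.000983) in GM-MF and by 0.49 (SE 0.12, adjusted p = 0.0182) in GM-DC, where the call was lost without GM-DC LPS replicate 3 or GM-DC unstimulated replicate 2 (-0.43 to -0.37, adjusted p = 0.0722 to 0.086).

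Among 18 measured genes that supply electrons to ubiquinone or make it, 4 were higher and 5 lower in GM-DC with LPS, and 3 were higher and 5 lower without, against the same shares over all genes (20.9% and 15.4% with LPS, 18% and 16.2% without). Etfdh, which passes electrons from fatty acid oxidation to ubiquinone, read 9.81, 9.85 and 10.11 in LPS-treated GM-DC and 9.71, 9.65 and 9.95 in unstimulated GM-DC, and 7.70, 7.61 and 7.84 in LPS-treated GM-MF and 8.47, 7.89 and 8.17 in unstimulated GM-MF. It was higher in GM-DC by 2.21 ± 0.14 with LPS (4.62-fold, adjusted p = 6.84e-09) and 1.60 ± 0.14 without (3.03-fold, adjusted p = 2.68e-07). Sqor, which oxidises sulphide, went the other way, with 6.57, 6.72 and 5.72 in LPS-treated GM-DC and 7.02, 7.03 and 6.21 in unstimulated GM-DC, and 8.67, 8.53 and 8.47 in LPS-treated GM-MF and 9.01, 8.69 and 8.87 in unstimulated GM-MF. It was lower in GM-DC by -2.22 ± 0.24 with LPS (4.67-fold, adjusted p = 2.02e-06) and -2.10 ± 0.24 without (4.3-fold, adjusted p = 3.8e-06). Coq2, an enzyme of ubiquinone synthesis, was lower by -0.66 ± 0.11 with LPS (adjusted p = 0.00016) and 2-fold lower without (adjusted p = 2.57e-06).

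With LPS, Coq10a, which helps complex III use ubiquinone, fell in both cell types, by 0.75 in GM-DC (SE 0.10, adjusted p = 0.000106) and by 0.91 in GM-MF (SE 0.10, adjusted p = 8.69e-06). Gpd2, which passes electrons from glycerol phosphate to ubiquinone, rose in GM-MF by 0.63 ± 0.12 (adjusted p = 0.00123) and differed by 0.33 ± 0.12 in GM-DC (adjusted p = 0.104), and the difference between these responses was not called (adjusted p = 0.369). Cycs, cytochrome c, was lower in GM-DC by -0.96 ± 0.11 with LPS (1.95-fold, adjusted p = 5.7e-06) and -0.87 ± 0.11 without (adjusted p = 1.74e-05). Its rise with LPS in GM-MF, 0.42 ± 0.11 (adjusted p = 0.0189), was no longer called without GM-MF LPS replicate 1 or GM-MF unstimulated replicate 2 or 3 (0.37 to 0.43, adjusted p = 0.0501 to 0.0726).

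Of the genes of the carriers that exchange ADP and ATP across the inner membrane, Slc25a4 was higher in GM-DC by 0.74 ± 0.09 with LPS (adjusted p = 1.07e-05) and 0.54 ± 0.09 without (adjusted p = 0.000256), and Slc25a5 was lower by -0.64 ± 0.10 with LPS (adjusted p = 0.000145) and -0.77 ± 0.10 without (adjusted p = 2.48e-05). Atpif1, the inhibitor of complex V, was higher by 0.44 ± 0.09 with LPS (adjusted p = 0.000751) and 0.40 ± 0.09 without (adjusted p = 0.00163). In that list of 8 measured genes, 3 were higher and 1 lower with LPS and 2 were higher and 2 lower without. Over all genes 20.9% were higher and 15.4% lower with LPS, and 18% and 16.2% without. Of the 13 subunits encoded in mitochondrial DNA only ND3 and COX2 were measured as single symbols, and neither was called in any comparison, with COX2 at 12.30 ± 0.02, 12.29 ± 0.08, 12.26 ± 0.11 and 12.09 ± 0.31 (mean ± SD, n = 3 each) in LPS-treated and unstimulated GM-DC and LPS-treated and unstimulated GM-MF.

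Among 15 regulators of nuclear and mitochondrial gene expression, 3 were higher and 4 lower in GM-DC with LPS and 2 were higher and 2 lower without, where the shares over all genes were 20.9% and 15.4% with LPS and 18% and 16.2% without. Yy1, which encodes a factor that binds many of these promoters, was higher in GM-DC by 0.65 ± 0.08 with LPS (adjusted p = 1.3e-05) and 0.61 ± 0.08 without (adjusted p = 2.55e-05). Polg, the polymerase of mitochondrial DNA, was lower by -0.60 ± 0.12 with LPS (adjusted p = 0.000962) and -1.11 ± 0.12 without (adjusted p = 2.42e-06). Gabpb1, a subunit of the ETS factor GABP, rose with LPS in GM-MF by 0.66 ± 0.12 (adjusted p = 0.000947) and differed by 0.20 ± 0.12 in GM-DC (adjusted p = 0.406). Ppargc1b, a coactivator of mitochondrial genes, read 3.70, 3.93 and 4.08 in LPS-treated GM-DC and 4.23, 4.12 and 3.82 in unstimulated GM-DC, and 4.35, 4.11 and 4.27 in LPS-treated GM-MF and 4.95, 5.11 and 5.17 in unstimulated GM-MF. Only the unstimulated GM-MF arrays lay above the array medians. In the other groups it was not shown above background, so its fitted differences are no measured folds. It was called lower in GM-DC without LPS (adjusted p = 1.34e-05) and lower with LPS in GM-MF (adjusted p = 0.000344), results that share the unstimulated GM-MF arrays.

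Among 19 genes of mitochondrial import and structure, 7 were higher and 2 lower in GM-DC with LPS and 3 were higher and 4 lower without, beside 20.9% and 15.4% of all genes with LPS and 18% and 16.2% without. Dnm1l, which drives mitochondrial fission, was higher by 1.19 ± 0.09 with LPS (2.28-fold, adjusted p = 6.07e-08) and 1.07 ± 0.09 without (2.1-fold, adjusted p = 1.98e-07). Immt, a scaffold of the inner membrane folds, was lower by -0.73 ± 0.10 with LPS (adjusted p = 2.11e-05) and -0.66 ± 0.10 without (adjusted p = 6.08e-05). Between LPS-treated cells, the chaperonin genes Hspd1 and Hspe1 were higher in GM-DC than in GM-MF, by 0.41 ± 0.09 (adjusted p = 0.00134) and 0.57 ± 0.10 (adjusted p = 0.0002). Neither gene rose with LPS. Hspd1 averaged 10.21 with LPS and 10.20 without in GM-DC, and its fall in GM-MF, from 10.19 to 9.80, was called. Hspe1 was also called higher in GM-DC without LPS (11.74 against 11.27).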

How the data were processed

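The authors deposited 1 table of log2 expression values for 12 arrays. The submitters' processing notes name RMA and R 3.0.2. RMA settings are not given in the sources used here, and the base of the logarithm was taken from the range of the values, 1.18 to 13.7. Values were used as deposited, with no filter. Of 35556 probe sets, 21789 had 1 gene symbol in the platform annotation, 1621 several and 12146 none. Per gene the probe set with the highest mean over the 12 arrays was kept, which left 19938 genes. For 17 members with several probe sets, all 13 called comparisons had every other probe set in the same direction.

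Group means of all 12 arrays were fitted with limma 3.58.1 (lmFit, contrasts.fit and eBayes, in R 4.3.3, 8 residual degrees of freedom) with two-sided p-values. Benjamini-Hochberg adjustment ran over all 19938 genes separately for every comparison, and the threshold for a call was an adjusted p of 0.05. The code was tested on simulated data. For arrays, the 3 per group limit the precision. No set test was run.

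Genes were named by rule: for every complex and comparison the called members of largest size, at most 3 per direction, then the 2 members of highest level per complex, all Sdh genes, all isoform families, and up to 2 called genes per direction of each pathway list. Members, lists and rules were chosen with earlier results of these data known.

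Arrays of 1 replicate number correlated in their deviations from group means within a cell type (0.119, 0.136 and 0.363 between LPS-treated and unstimulated GM-DC, 0.257, 0.188 and 0.104 in GM-MF). The labels do not say what a number marks. The main fit held no term for it, so its p-values are unpaired, and the replicate number as a block was an alternative. Between GM-DC and GM-MF the correlations were 0.156, -0.0047 and 0.0846 with LPS and 0.0117, -0.168 and -0.0412 without. Since some of these values reach those within a cell type, the check does not settle which arrays are paired. Alternatives were median centring, cyclic loess, 2 filters on low values, the block, eBayes with trend, averaged probe sets, only the arrays compared, and leaving out each array. Promoter windows are RefSeq's (GRCm38.p6).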

Additional observations from a re-analysis of the deposited data

Results flagged for a closer look

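These genes are listed because their LPS responses differed between GM-DC and GM-MF by the interaction term of the limma fit (response in GM-DC minus response in GM-MF). Sdhb differed by 0.52 (adjusted p = 0.0233), its response being 0.09 in GM-DC against -0.43 in GM-MF. Ndufaf4 differed by 0.65 (adjusted p = 0.0441), its response being 0.03 in GM-DC against -0.61 in GM-MF. Phb2, a prohibitin of the inner mitochondrial membrane, differed by 0.51 (adjusted p = 0.0306), its response being 0.08 in GM-DC against -0.43 in GM-MF. It lost the call when any of 8 arrays was left out (0.47 to 0.52, adjusted p = 0.0572 to 0.0818), the exceptions being GM-DC LPS replicate 3, GM-DC unstimulated replicate 2, GM-MF LPS replicate 2 and GM-MF unstimulated replicate 1, and after median centring (0.46, adjusted p = 0.0736). Ppargc1b differed by 0.68 (adjusted p = 0.0364), its response being -0.15 in GM-DC against -0.83 in GM-MF. It lay above the array medians in unstimulated GM-MF and in no other group, and no test against background was run, so these values are no measured folds. With the replicate number as a block its adjusted p was 0.0541, and 0.0737 with the block within each cell type. It also lost the call when any of 8 arrays was left out (0.56 to 0.71, adjusted p = 0.0563 to 0.0936), the exceptions being replicate 1 of each group, and after median centring (0.62, adjusted p = 0.0515).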

How the results depend on the processing

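Of 142 named gene comparisons that were called, 99 stayed called under every alternative, 43 were lost under at least 1 and 0 were reversed. Of 273 that were not called, 44 were called under at least 1. Members higher in GM-DC without LPS numbered 7, and 11 under either filter on low values, which tests fewer genes, and 13 with eBayes trend. Members lowered by LPS in GM-MF numbered 10, 18 with eBayes trend and 5 when only the arrays compared were fitted, which has fewer arrays. Members with a called difference of responses numbered 2, 1 after median centring and 0 after cyclic loess, and the cause was not tested. Leaving out 1 array at a time gave 5 to 7 higher and 17 to 22 lower members in GM-DC without LPS, 10 to 16 higher and 11 to 16 lower with LPS, 0 and 0 for LPS in GM-DC, 0 higher and 5 to 11 lower for LPS in GM-MF, and 0 to 2 higher and 0 lower for the difference of responses. With the replicate number as a block the LPS comparisons gave the same counts, 0 and 0 in GM-DC, 0 and 10 in GM-MF and 2 and 0 for the difference of responses, as they did with the block within each cell type, an alternative chosen after seeing the data. Between the cell types the block gave 16 higher and 15 lower with LPS and 6 higher and 23 lower without. Over named genes the block within each cell type changed the calls of Cox17 (LPS in GM-MF, 0.28, adjusted p = 0.0466, and 0.0574 with it) and Ppargc1b among those called. Ndufb10 without LPS had an adjusted p of 0.0531 under the block. Probes not shown above background (Cox4i2, Cox7b2, Cox8b, Cox8c, Ndufa4l2 in GM-DC, and Ppargc1b in GM-DC and in LPS-treated GM-MF) limit what their values can show.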
